A study of Arabidopsis thaliana with 24 samples.

Results

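The 90 probe sets described here measured transcripts that were lower after 30 minutes of chitin in wild-type Arabidopsis thaliana seedlings and in both mutant lines of the study. Chitin is a carbohydrate of fungal cell walls, and hydrolyzed crab-shell chitin is used to set off plant defence without a pathogen. Members were chosen from 22746 non-control probe sets of the ATH1 array by their measured values in each line. The signal of each probe set was divided by the median of its array and turned into log2, chitin minus mock had to be -0.8 or lower in each line, and the mock mean had to be at or above the array median, a log2 value of 0, in each line. Of 92 probe sets that met these thresholds, 2 were left out because they match the glucosyltransferase genes UGT76E12 and UGT84A3, and a limit on the probe set number removed none. The rule could be met by 10808 probe sets whose mock means reached the array median in all 3 lines, and the members are 0.833% of these.

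The atl9 line carries a T-DNA insertion in a gene for a RING-domain protein of the kind found in ubiquitin ligases, and was deposited under the older name rre1-1. The rre2 line, rre2-1, carries a T-DNA insertion in a second RING-domain gene, and Col-0 is the wild-type accession. Each mutant is represented by 1 insertion allele. Whole seedlings were grown in shaken liquid medium with dextrose for 14 days under constant light at 22 °C, so roots and shoots were measured together. Chitin was added to 100 mg/L in the treated flasks. The control flasks, given water according to the authors' methods, are called mock. Each of the 6 groups (atl9 chitin, atl9 mock, rre2 chitin, rre2 mock, Col-0 chitin and Col-0 mock) had 4 arrays from separate biological replicates. The 4 Col-0 chitin arrays carry the word untreated in 1 text field and chitin in the title and the source name, and they were taken as chitin. Both mutated genes themselves were not analysed here.

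In plants, chitin fragments are sensed by LysM receptor proteins at the cell surface, and within minutes this sets off calcium influx, reactive oxygen, kinase cascades and changes in transcription. Transcripts of defence genes such as those for WRKY transcription factors accumulate early. Many of the short-lived messengers of plant cells code for transcription factors and signalling proteins. A fall in seedling RNA does not separate fewer expressing cells from less RNA per cell.

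Of the 90 members, 40 match 1 annotated gene, 1 matches a pair of genes, and 49 are not listed in the annotation used and are given by probe set. The 49 and the probe set for the gene pair are called unnamed below. Values are given as multiples of the array median, so that 1 is the signal of the middle probe set of that array. They compare 1 probe set across arrays and do not rank different transcripts against each other. Over the 3 mock groups the members averaged 1.1 to 22.2 times the array median, with a median of 3, against a median of 3.46 for all probe sets that reached the level threshold.

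Since the chitin response chose the members, its values are a description without a test. Median log2 chitin minus mock over the members was -1.16 in atl9, -1.31 in rre2 and -1.21 in Col-0, against 0.006, 0.003 and 0.05 over all probe sets tested, those of highest mean signal. In linear terms the median member was 2.24-fold lower after chitin in atl9, 2.49-fold lower in rre2 and 2.32-fold lower in Col-0. The most negative values were -2.38 in atl9, -2.75 in rre2 and -2.8 in Col-0. A change of -1 or lower was reached by 60 members in atl9, 73 in rre2 and 64 in Col-0, and by 43 in all 3 lines. Only 9 members were at -1.5 or lower in every line. After chitin most members were still as bright as the middle of the array, with 58 at or above the array median in atl9, 53 in rre2 and 53 in Col-0.

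**Figure D1:**
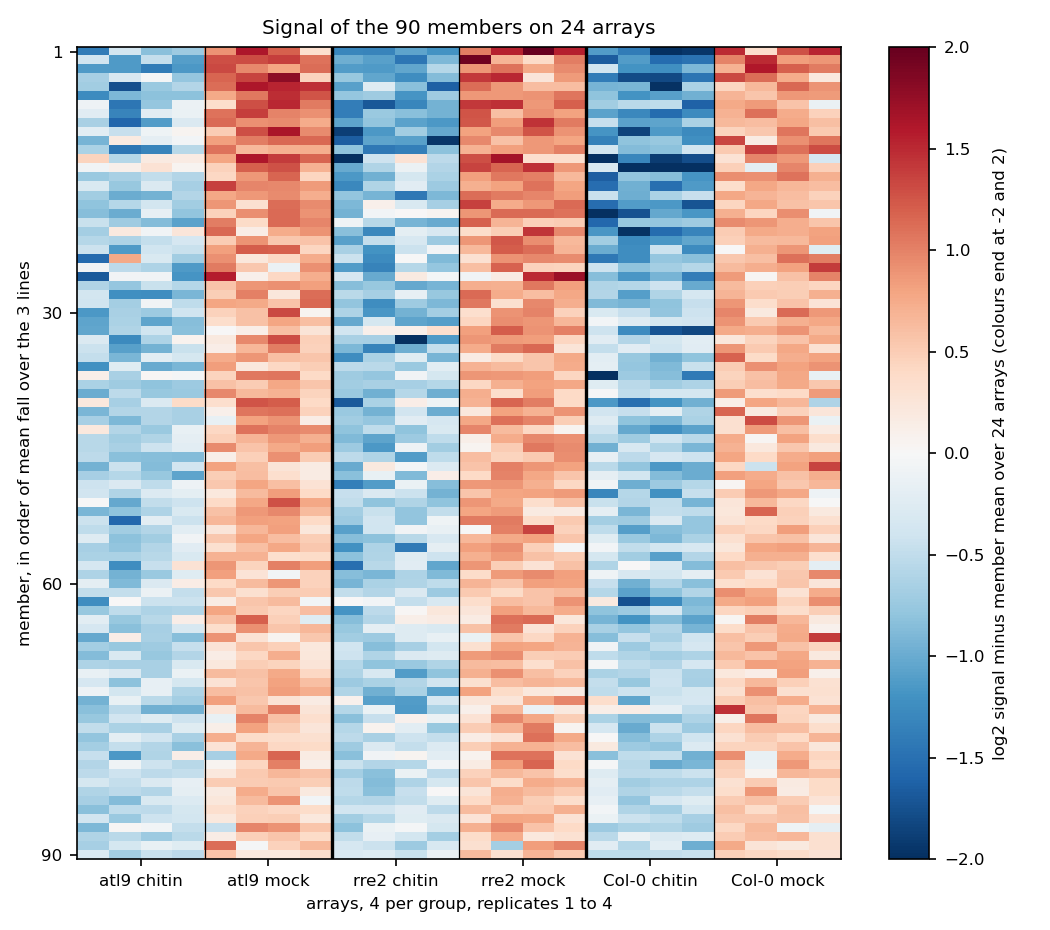
Log2 signal of the 90 members (vertical axis, ordered by mean fall over the 3 lines) on the 24 arrays (horizontal axis, 4 per group), each member centred on its mean over all arrays. Chitin arrays are mostly blue (below the member's mean) and mock arrays mostly red in each line, as the choice of members requires.

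The single arrays followed the group means for most members. All 4 chitin arrays were below all 4 mock arrays for 81 members in atl9 (background 5.32% of probe sets), 86 in rre2 (5.58%) and 87 in Col-0 (6.21%), and for 75 members in all 3 lines (1.21%). In limma, a linear model with moderated variances fitted over all of those probe sets, 82 members were lower at an adjusted p under 0.05 in atl9 (background 3.09%), 86 in rre2 (4.43%) and 89 in Col-0 (5.67%). These counts follow from the choice of members and support nothing. The 8 members that did not pass in atl9 were AT5G54300, AT1G11700, 264940_at, 251272_at, 262226_at, 249467_at, 251785_at and 266901_at. In rre2 the 4 were AT1G11700, AT5G25840, AT5G26200 and 251785_at, and in Col-0 the 1 was AT5G43180.

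On each array the median of the 90 members gave the same picture. It lay between 1.23 and 1.45 times the array median on atl9 chitin arrays, against 2.87 to 3.55 on atl9 mock arrays. It lay between 1.1 and 1.29 on rre2 chitin arrays, against 3.12 to 3.58 on rre2 mock arrays. It lay between 1.06 and 1.46 on Col-0 chitin arrays, against 2.58 to 3.16 on Col-0 mock arrays, and no chitin array reached a mock array in any line. Scanning took 4 days, with 2 arrays of every group read on the last of them, scan day 4. The earlier days were not balanced between lines. Scan day 1 had no atl9 array, scan day 2 no rre2 array and scan day 3 no Col-0 mock array. With scan day 4 alone the median chitin minus mock was -1.06 in atl9, -1.33 in rre2 and -1.08 in Col-0, and with the earlier days it was -1.24, -1.26 and -1.32 in the same order. All 90 members were below 0 in all 3 lines on both sets of days. The rule chose the members on these same arrays, so the array medians and the split by day are a description and support nothing. Fluidics modules 2 and 4 processed all chitin arrays and modules 1 and 3 all mock arrays. Module and treatment therefore cannot be told apart.

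**Figure D2:**
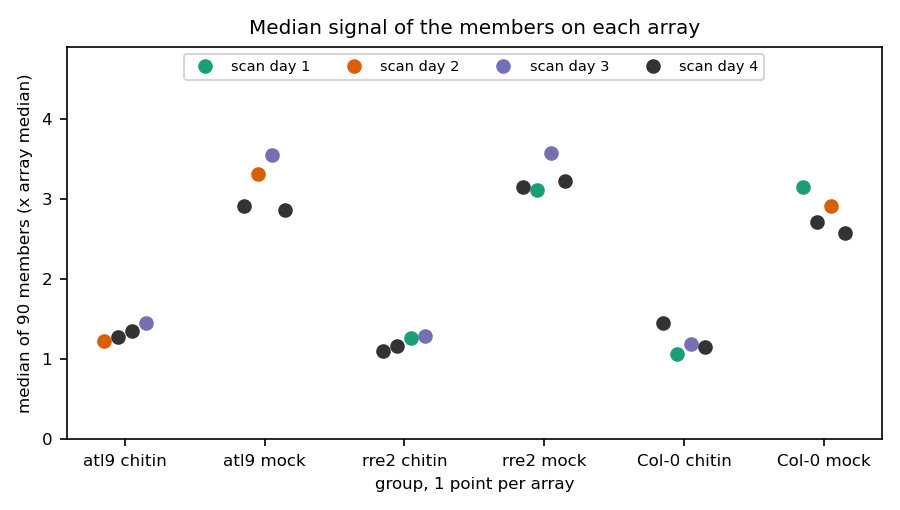
Median signal of the 90 members on each of the 24 arrays (vertical axis, multiples of the array median), by group and coloured by scan day. The 12 chitin arrays sit between 1.06 and 1.46 and the 12 mock arrays between 2.58 and 3.58.

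Of the 40 named members, 6 code for transcription factors, and the grouping by role was made from general knowledge after the values were known. Their median chitin minus mock was -1.19 in atl9, -1.38 in rre2 and -1.1 in Col-0. AT5G61590 codes for DEWAX, an ERF-family repressor of genes for cuticular wax synthesis, and had the lowest value of the group in all 3 lines. AT5G61590 read 2.42, 1.38, 1.5 and 2.55 times the array median on the atl9 chitin arrays, against 7.94, 5.92, 6.13 and 6.2 on the atl9 mock arrays. In rre2, AT5G61590 read 2.15, 1.39, 1.46 and 2.14 after chitin, against 6.1, 6.65, 6.83 and 7.55 in mock. In Col-0, AT5G61590 read 2.9, 2.07, 2.12 and 2.88 after chitin, against 5.39, 9.7, 8.06 and 9.24 in mock. AT5G61590 was lower on every chitin array than on every mock array of its line, with log2 differences of -1.78 in atl9, -1.95 in rre2 and -1.68 in Col-0 (SE 0.22). The other ERF-family factor, AT2G44940, averaged 1.06 ± 0.14 after chitin and 2.9 ± 0.43 in mock in atl9 (SD, n = 4 each), with log2 differences of -1.45 in atl9, -1.39 in rre2 and -0.92 in Col-0 (SE 0.16).

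A pair of members code for DOF-type zinc finger factors, AT1G29160 (COG1, a negative regulator of phytochrome signalling) and AT1G69570 (CDF5, a cycling DOF factor of the flowering-time pathway). AT1G29160 read 0.82, 0.873, 0.767 and 0.626 times the array median on the atl9 chitin arrays, against 1.83, 2, 1.64 and 1.46 on the atl9 mock arrays. In rre2, AT1G29160 read 0.732, 1.17, 0.708 and 1.42 after chitin, against 1.71, 2.6, 2.23 and 1.91 in mock. In Col-0, AT1G29160 read 1.15, 1.01, 0.715 and 0.651 after chitin, against 2.3, 2.17, 1.95 and 2.15 in mock. For AT1G29160 chitin and mock arrays did not overlap in any line, and its log2 differences were -1.17 in atl9, -1.11 in rre2 and -1.32 in Col-0 (SE 0.21). AT1G69570 read 0.662, 0.79, 0.733 and 0.75 times the array median on the atl9 chitin arrays, against 1.94, 1.61, 1.52 and 1.72 on the atl9 mock arrays. In rre2, AT1G69570 read 0.496, 0.782, 1.14 and 1.32 after chitin, against 1.33, 1.99, 1.77 and 1.89 in mock. In Col-0, AT1G69570 read 0.647, 0.683, 0.905 and 0.628 after chitin, against 1.52, 1.57, 1.44 and 1.59 in mock. AT1G69570 had its widest chitin spread in rre2, where the highest chitin array lay just under the lowest mock array, and its differences were -1.21 in atl9, -0.98 in rre2 and -1.11 in Col-0 (SE 0.21). AT1G74840, a MYB-related factor, and AT2G37650, a GRAS-family factor, complete the group. The first had differences of -0.9 in atl9, -1.38 in rre2 and -1.09 in Col-0 (SE 0.17), and the second of -0.9 in atl9, -1.38 in rre2 and -0.9 in Col-0 (SE 0.17).

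Signalling and protein-turnover genes made up a further set of named members. AT2G36090 codes for an F-box protein, the type of protein that selects targets for SCF ubiquitin ligases, and had the most negative value of all members in atl9. AT2G36090 read 0.467, 0.225, 0.455 and 0.504 times the array median on the atl9 chitin arrays, against 1.64, 2.33, 2.19 and 2.08 on the atl9 mock arrays. In rre2, AT2G36090 read 0.356, 0.635, 0.425 and 0.245 after chitin, against 1.65, 1.39, 1.17 and 1.16 in mock. In Col-0, AT2G36090 read 0.4, 0.405, 0.194 and 0.488 after chitin, against 1.02, 1.19, 1.69 and 1.41 in mock. The chitin values of AT2G36090 were much alike in the 3 lines, while all but 1 of its atl9 mock arrays stood above every rre2 mock array. Its log2 differences were -2.38 in atl9, -1.76 in rre2 and -1.89 in Col-0 (SE 0.29). XERICO codes for a RING-H2 zinc finger protein known to raise abscisic acid levels when overproduced. XERICO read 2.65, 1.89, 2.99 and 2.62 times the array median on the atl9 chitin arrays, against 4.12, 4.9, 5.84 and 5.07 on the atl9 mock arrays. In rre2, XERICO read 2.02, 2.16, 2.23 and 2.56 after chitin, against 4.17, 5.12, 5.37 and 5.28 in mock. In Col-0, XERICO read 2.41, 1.98, 2.52 and 2.11 after chitin, against 4.49, 5.27, 4.67 and 4.14 in mock. XERICO showed little spread, with no overlap in any line and differences of -0.98 in atl9, -1.15 in rre2 and -1.04 in Col-0 (SE 0.14).

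Members with a role in protein phosphorylation were AT3G16560 and AT3G16800, both of the protein phosphatase 2C family, and the protein kinase gene AT5G51770. AT3G16800 read 1.53, 1.27, 1.46 and 1.08 times the array median on the atl9 chitin arrays, against 2.53, 2.48, 2.94 and 2.71 on the atl9 mock arrays. In rre2, AT3G16800 read 1.08, 0.842, 1.06 and 0.78 after chitin, against 2.87, 2.15, 1.9 and 1.85 in mock. In Col-0, AT3G16800 read 1.16, 1.24, 1.21 and 1.29 after chitin, against 2.05, 3.1, 2.05 and 2.06 in mock. AT3G16800 did not overlap between treatments in any line and had log2 differences of -1.01 in atl9, -1.21 in rre2 and -0.9 in Col-0 (SE 0.16). For AT3G16560 the differences were -1.13 in atl9, -1.34 in rre2 and -1.24 in Col-0 (SE 0.26), and for AT5G51770 they were -0.82 in atl9, -0.98 in rre2 and -0.92 in Col-0 (SE 0.15), close to the threshold of the rule.

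**Figure D3:**
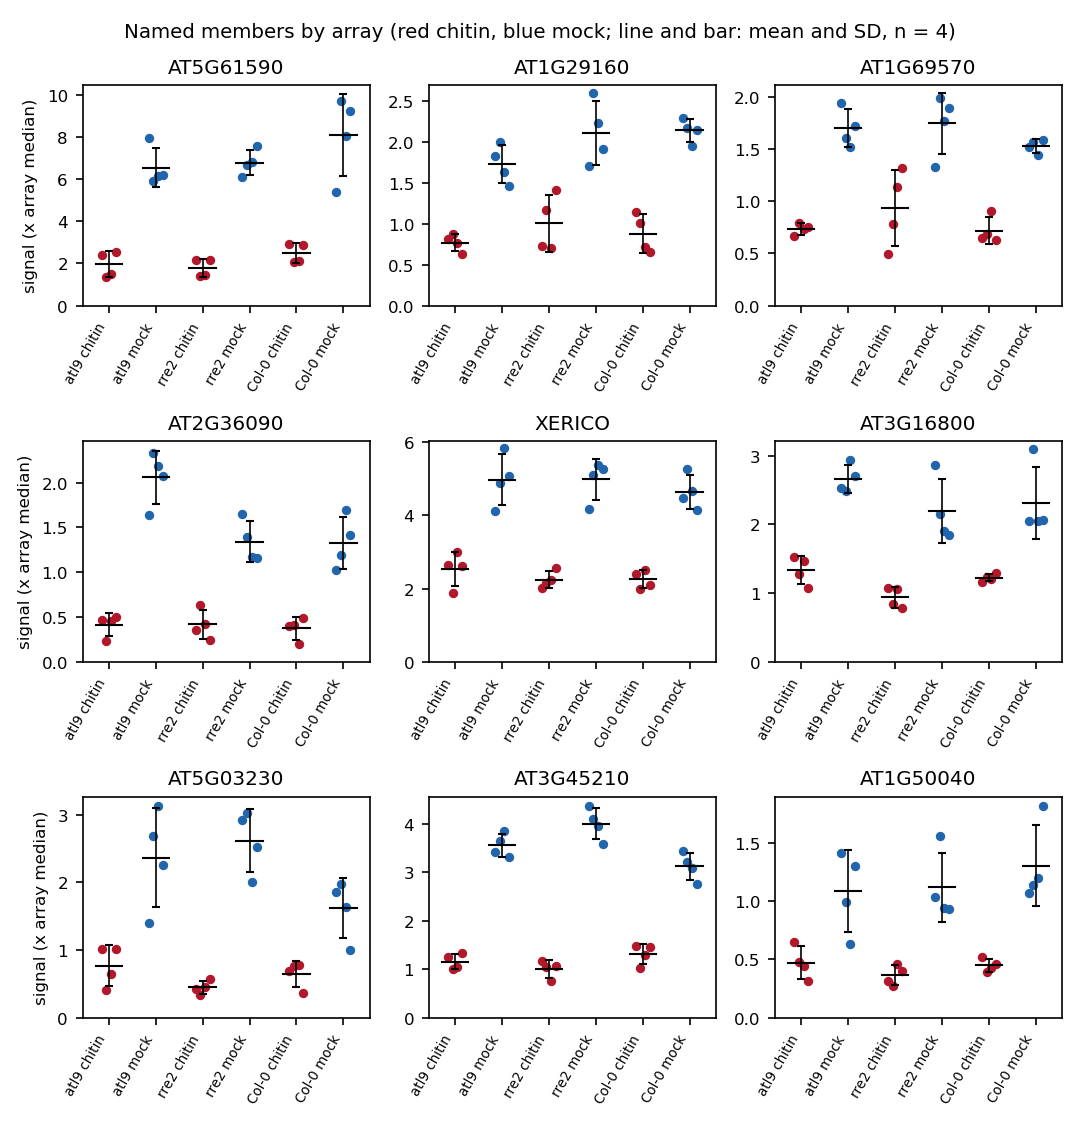
Signal of 9 named members on each array (vertical axes, multiples of the array median, starting at 0), with chitin in red and mock in blue for atl9, rre2 and Col-0 and the mean and SD of 4 arrays in black. AT5G61590 averaged 1.96 after chitin and 6.55 in mock in atl9, and each of the 9 genes has a lower mean after chitin in every line.

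Several members belong to plant protein families known mainly by a conserved domain of unknown function. The DUF584 family, related to senescence-associated S40 proteins, was represented by AT5G03230, AT3G45210 and AT1G11700, with a median difference of -1.63 in atl9, -2.01 in rre2 and -1.26 in Col-0. AT5G03230 read 1.02, 0.403, 0.641 and 1.01 times the array median on the atl9 chitin arrays, against 1.4, 2.68, 3.12 and 2.26 on the atl9 mock arrays. In rre2, AT5G03230 read 0.422, 0.338, 0.447 and 0.572 after chitin, against 2.92, 3.02, 2 and 2.52 in mock. In Col-0, AT5G03230 read 0.682, 0.759, 0.776 and 0.357 after chitin, against 1.86, 1.98, 1.64 and 1 in mock. AT5G03230 was lowest after chitin in rre2, where all 4 arrays were under 0.6 times the array median, and its differences were -1.66 in atl9, -2.56 in rre2 and -1.35 in Col-0 (SE 0.31). AT3G45210 read 1.24, 1.01, 1.04 and 1.33 times the array median on the atl9 chitin arrays, against 3.41, 3.64, 3.85 and 3.32 on the atl9 mock arrays. In rre2, AT3G45210 read 1.16, 1.05, 0.746 and 1.07 after chitin, against 4.37, 4.1, 3.95 and 3.59 in mock. In Col-0, AT3G45210 read 1.47, 1.02, 1.29 and 1.45 after chitin, against 3.43, 3.2, 3.09 and 2.75 in mock. Replicates of AT3G45210 were close together and the gap between treatments was wide in all lines, with differences of -1.63 in atl9, -2.01 in rre2 and -1.26 in Col-0 (SE 0.14). The family member AT1G11700 had differences of -0.87 in atl9, -0.89 in rre2 and -1.18 in Col-0 (SE 0.34) and passed in neither mutant.

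The DUF1005 family gave AT1G50040, AT1G10020 and AT3G19680, with medians of -1.19 in atl9, -1.61 in rre2 and -0.99 in Col-0. AT1G50040 read 0.652, 0.476, 0.448 and 0.312 times the array median on the atl9 chitin arrays, against 1.42, 0.995, 0.635 and 1.3 on the atl9 mock arrays. In rre2, AT1G50040 read 0.317, 0.272, 0.461 and 0.404 after chitin, against 1.04, 1.56, 0.942 and 0.938 in mock. In Col-0, AT1G50040 read 0.518, 0.392, 0.427 and 0.461 after chitin, against 1.07, 1.14, 1.2 and 1.82 in mock. In atl9 the lowest mock array of AT1G50040 lay below the highest chitin array, and in the other lines the treatments did not overlap, with differences of -1.19 in atl9, -1.62 in rre2 and -1.51 in Col-0 (SE 0.25). AT1G10020 read 1.09, 1.46, 1.09 and 1.25 times the array median on the atl9 chitin arrays, against 2.89, 3.39, 3.92 and 3.41 on the atl9 mock arrays. In rre2, AT1G10020 read 1.11, 1.77, 1.09 and 1.05 after chitin, against 3.03, 4.28, 4.16 and 3.59 in mock. In Col-0, AT1G10020 read 2.18, 1.89, 1.76 and 1.74 after chitin, against 4.21, 3.25, 3.71 and 3.86 in mock. After chitin AT1G10020 was higher on each of the 4 Col-0 arrays than on all but 1 of the mutant arrays, and its differences were -1.48 in atl9, -1.61 in rre2 and -0.99 in Col-0 (SE 0.16). AT3G19680 had differences of -1.01 in atl9, -1.57 in rre2 and -0.81 in Col-0 (SE 0.18). The DUF506 family gave AT2G38820 (differences of -0.88 in atl9, -1.29 in rre2 and -1.4 in Col-0, SE 0.21) and AT3G22970 (differences of -1.29 in atl9, -1.32 in rre2 and -0.94 in Col-0, SE 0.2).

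Other members with a recognised domain changed by similar amounts. AT1G74940 codes for an FCS-like zinc finger protein and had differences of -1.24 in atl9, -1.3 in rre2 and -1.11 in Col-0 (SE 0.22). AT1G61740, of the sulfite exporter TauE/SafE family, averaged 4.65 ± 0.24 after chitin and 11.6 ± 0.97 in mock in atl9 (SD, n = 4 each), and its differences of -1.32 in atl9, -1.32 in rre2 and -1.13 in Col-0 (SE 0.11) had a small error. AT5G26200, of the mitochondrial carrier family, was far more variable, with differences of -1.46 in atl9, -1.12 in rre2 and -1.7 in Col-0 (SE 0.42), and its rre2 mock arrays overlapped the chitin arrays. AT2G43760, a gene of molybdenum cofactor synthesis, sat close to the threshold in all 3 lines with differences of -0.81 in atl9, -0.82 in rre2 and -0.87 in Col-0 (SE 0.11). AT5G53750, with a CBS domain, had differences of -1.12 in atl9, -1.09 in rre2 and -1.4 in Col-0 (SE 0.29), and AT1G53340, with a C1 domain, of -1.35 in atl9, -0.83 in rre2 and -0.88 in Col-0 (SE 0.24).

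AT5G11090, a serine-rich protein gene, gave the strongest mock signal among named members. AT5G11090 read 5.78, 8.76, 7.72 and 6.43 times the array median on the atl9 chitin arrays, against 16.7, 13, 12.8 and 12.5 on the atl9 mock arrays. In rre2, AT5G11090 read 6.99, 6.43, 7.54 and 7.19 after chitin, against 11.1, 12.3, 21.6 and 16.9 in mock. In Col-0, AT5G11090 read 10.1, 5.54, 6.51 and 7.58 after chitin, against 12.4, 14.2, 13.3 and 16 in mock. It was lower on all chitin arrays than on all mock arrays of its line, and its differences were -0.95 in atl9, -1.09 in rre2 and -0.95 in Col-0 (SE 0.19). AT1G49500, for which no role is given here, averaged 5.82 ± 0.95 after chitin and 13.2 ± 1.4 in mock in atl9 (SD, n = 4 each), with differences of -1.19 in atl9, -1.48 in rre2 and -1.04 in Col-0 (SE 0.18). AT2G21560, also without a role, had differences of -1.35 in atl9, -1.66 in rre2 and -2.03 in Col-0 (SE 0.2), the most negative Col-0 value among named members.

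The 50 unnamed members included 9 of the 12 with the lowest mean over the 3 lines. Their median chitin minus mock was -1.12 in atl9, -1.34 in rre2 and -1.36 in Col-0, against -1.17, -1.3 and -1.12 for the 40 named members. The lowest mean over the 3 lines was that of 249882_at. 249882_at read 0.309, 0.636, 0.457 and 0.492 times the array median on the atl9 chitin arrays, against 1.52, 2.51, 1.87 and 1.03 on the atl9 mock arrays. In rre2, 249882_at read 0.331, 0.327, 0.394 and 0.356 after chitin, against 1.67, 2.38, 3.25 and 2.4 in mock. In Col-0, 249882_at read 0.379, 0.309, 0.192 and 0.212 after chitin, against 2.31, 1.05, 1.97 and 2.35 in mock. On the rre2 and Col-0 chitin arrays 249882_at was under 0.4 times the array median throughout, and its differences were -1.85 in atl9, -2.75 in rre2 and -2.8 in Col-0 (SE 0.29). 247696_at read 1.29, 0.782, 1.23 and 0.799 times the array median on the atl9 chitin arrays, against 4.18, 4.2, 4.43 and 3.62 on the atl9 mock arrays. In rre2, 247696_at read 0.866, 0.801, 0.627 and 0.911 after chitin, against 6.59, 2.72, 2.23 and 3.47 in mock. In Col-0, 247696_at read 0.539, 0.789, 0.589 and 0.613 after chitin, against 3.4, 4.81, 3.06 and 3.14 in mock. For 247696_at no chitin array reached 1.3 and no mock array was under 2.2, with differences of -2.04 in atl9, -2.11 in rre2 and -2.5 in Col-0 (SE 0.25).

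Deep falls were not limited to weak signals, since 247013_at was read at over 10 times the array median in every mock sample. 247013_at read 2.87, 2.87, 2.41 and 2.85 times the array median on the atl9 chitin arrays, against 15.8, 12.3, 10.9 and 13.7 on the atl9 mock arrays. In rre2, 247013_at read 2.92, 2.9, 3.07 and 4.28 after chitin, against 11.7, 13.4, 10.7 and 12.2 in mock. In Col-0, 247013_at read 4.82, 2.75, 2.7 and 3.41 after chitin, against 10.2, 19.3, 14.5 and 13 in mock. All 12 chitin arrays of 247013_at were under 5, and its differences were -2.25 in atl9, -1.88 in rre2 and -2.06 in Col-0 (SE 0.19). 264014_at read 1.14, 1.46, 1.54 and 1.54 times the array median on the atl9 chitin arrays, against 4.58, 5.66, 7.54 and 6.5 on the atl9 mock arrays. In rre2, 264014_at read 1.58, 1.65, 1.2 and 1.66 after chitin, against 4.93, 4.95, 5.04 and 5.72 in mock. In Col-0, 264014_at read 1.55, 1.19, 1.28 and 1.4 after chitin, against 4.36, 3.98, 4.97 and 4.89 in mock. Mock values of 264014_at averaged highest in atl9, and its differences were -2.08 in atl9, -1.77 in rre2 and -1.75 in Col-0 (SE 0.15) with the smallest error of the 12 members with the lowest means.

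Further unnamed members among those 12 were 252340_at, 258059_at, 246523_at and 247600_at. 252340_at read 0.415, 0.523, 0.639 and 0.382 times the array median on the atl9 chitin arrays, against 1.47, 1.67, 2.26 and 0.889 on the atl9 mock arrays. In rre2, 252340_at read 0.386, 0.319, 0.278 and 0.358 after chitin, against 1.75, 1.87, 0.775 and 1.18 in mock. In Col-0, 252340_at read 0.247, 0.19, 0.188 and 0.237 after chitin, against 1.63, 1.42, 1.09 and 0.757 in mock. For 252340_at the differences were -1.63 in atl9, -1.98 in rre2 and -2.46 in Col-0 (SE 0.29), and every atl9 chitin array was above every Col-0 chitin array. 258059_at read 1.63, 0.769, 1.64 and 1.75 times the array median on the atl9 chitin arrays, against 4.07, 5.01, 3.79 and 3.62 on the atl9 mock arrays. In rre2, 258059_at read 0.736, 1.15, 1.07 and 0.993 after chitin, against 4.59, 2.91, 3.61 and 3.35 in mock. In Col-0, 258059_at read 0.917, 0.783, 0.657 and 0.804 after chitin, against 3.11, 4.09, 3.2 and 2.64 in mock. The difference for 258059_at was smaller in size in atl9, with values of -1.57 in atl9, -1.87 in rre2 and -2.04 in Col-0 (SE 0.22). 246523_at read 1.44, 0.748, 1.04 and 1.84 times the array median on the atl9 chitin arrays, against 4.93, 4.23, 4.35 and 3.78 on the atl9 mock arrays. In rre2, 246523_at read 1.09, 1.31, 1.07 and 1.02 after chitin, against 5.3, 4.02, 6.11 and 4.64 in mock. In Col-0, 246523_at read 1.64, 1.07, 1.08 and 1.45 after chitin, against 3.53, 3.44, 3.85 and 3.4 in mock. 246523_at was least reduced in Col-0, with differences of -1.84 in atl9, -2.15 in rre2 and -1.46 in Col-0 (SE 0.21). 247600_at read 0.336, 0.728, 0.566 and 0.619 times the array median on the atl9 chitin arrays, against 1.14, 1.31, 1.42 and 1.43 on the atl9 mock arrays. In rre2, 247600_at read 0.206, 0.311, 0.303 and 0.167 after chitin, against 1.25, 0.969, 1.17 and 1.11 in mock. In Col-0, 247600_at read 0.253, 0.368, 0.381 and 0.276 after chitin, against 1.63, 0.719, 1.21 and 1.35 in mock. For 247600_at the rre2 chitin arrays held the lowest values, and the differences were -1.29 in atl9, -2.23 in rre2 and -1.9 in Col-0 (SE 0.25).

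The strongest mock signals of all members were those of 245987_at and 253125_at, followed by AT5G11090 and 258809_at. 245987_at read 12.4, 8.4, 9.13 and 14.2 times the array median on the atl9 chitin arrays, against 21.6, 25.8, 22.9 and 21 on the atl9 mock arrays. In rre2, 245987_at read 8.19, 8.43, 10.1 and 11.9 after chitin, against 23.6, 25, 25.9 and 21.7 in mock. In Col-0, 245987_at read 12.5, 8.84, 7.97 and 9.57 after chitin, against 18.6, 21.7, 22.3 and 17.6 in mock. 245987_at was still at 7.97 times the array median or more on every chitin array, and its differences were -1.08 in atl9, -1.33 in rre2 and -1.06 in Col-0 (SE 0.17). 253125_at read 9.61, 8.48, 9.08 and 11.8 times the array median on the atl9 chitin arrays, against 16.1, 21.6, 24.2 and 16 on the atl9 mock arrays. In rre2, 253125_at read 6.44, 10.4, 13 and 12.4 after chitin, against 13.6, 27.6, 34.8 and 18.8 in mock. In Col-0, 253125_at read 9.6, 6.41, 7.55 and 8.03 after chitin, against 19, 18.2, 24.3 and 19 in mock. The rre2 arrays of 253125_at varied widely within each treatment, but the lowest mock array was still above the highest chitin array, and the differences were -0.99 in atl9, -1.13 in rre2 and -1.36 in Col-0 (SE 0.25). 258809_at read 5.94, 5.95, 6.29 and 7.47 times the array median on the atl9 chitin arrays, against 15, 15, 11.6 and 12 on the atl9 mock arrays. In rre2, 258809_at read 5.25, 6.11, 7.85 and 6.92 after chitin, against 15.1, 16.6, 13.9 and 13.1 in mock. In Col-0, 258809_at read 7.23, 5.7, 4.37 and 6.14 after chitin, against 12.2, 15.1, 15.2 and 11.6 in mock. 258809_at showed a clear gap in every line, with differences of -1.06 in atl9, -1.18 in rre2 and -1.22 in Col-0 (SE 0.16).

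At the threshold, AT5G43180, of the DUF599 family, was the closest member in Col-0 and 264940_at in atl9, both at -0.81. AT5G43180 read 0.715, 0.382, 0.658 and 1.1 times the array median on the atl9 chitin arrays, against 1.67, 1.23, 1.82 and 1.62 on the atl9 mock arrays. In rre2, AT5G43180 read 0.317, 0.615, 0.775 and 0.442 after chitin, against 1.66, 1.27, 1.1 and 1.35 in mock. In Col-0, AT5G43180 read 0.593, 0.907, 0.726 and 0.497 after chitin, against 1.37, 1.32, 1.27 and 0.788 in mock. In Col-0 the lowest mock array of AT5G43180 lay below the highest chitin array. Just outside were AT1G68490, at -0.797 in atl9, and AT2G37750, at -0.796 in atl9. AT1G68490 read 2.93, 3.81, 3.35 and 3.43 on atl9 chitin arrays, against 4.79, 6.15, 6.94 and 5.71 on atl9 mock arrays. AT2G37750 read 8.31, 10.6, 11.5 and 12.4 on atl9 chitin arrays, against 18, 19.7, 17.6 and 18.4 on atl9 mock arrays. Neither overlapped between treatments in atl9.

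Falls of 1 member were often alike in the 3 lines. The gap between its most and least negative line was under 0.5 for 56 members and over 1 for 6, with a median of 0.388. The most negative value was in atl9 for 13 members, in rre2 for 41 and in Col-0 for 36, while the least negative was in atl9 for 40, in rre2 for 17 and in Col-0 for 33. Compared with Col-0, 51 members had a smaller fall in atl9 and 42 in rre2. Differences between lines in the chitin response were not tested, because the response in every line chose the members. That choice also favours members with like falls, and the gap between lines was not compared with that of other probe sets.

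**Figure D4:**
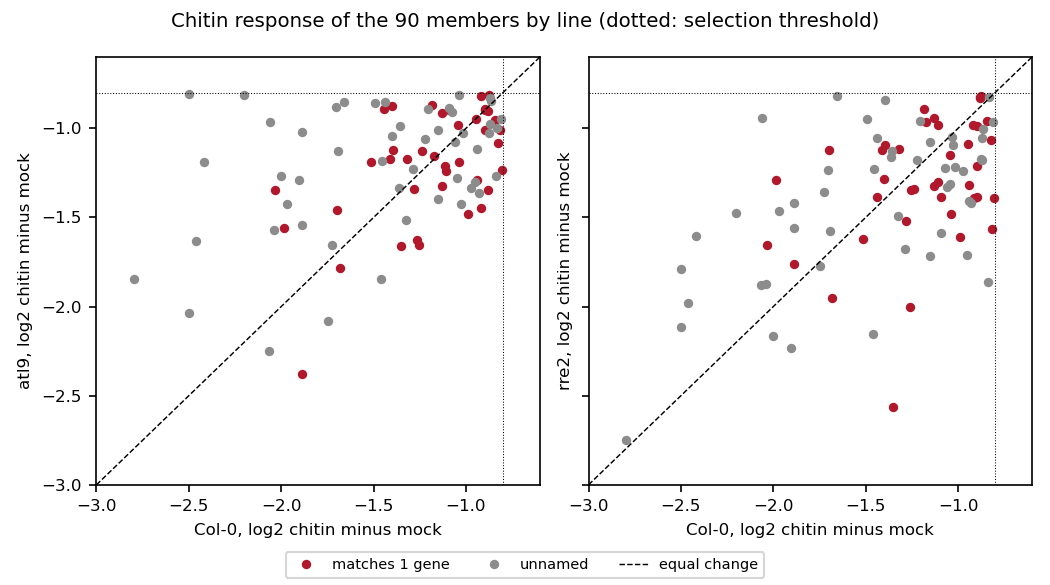
Log2 chitin minus mock of the 90 members in atl9 (left) and rre2 (right), both against Col-0, with the dashed line marking equal change and dotted lines the threshold of -0.8. Points above the dashed line fell less in the mutant than in Col-0, which holds for 51 members in atl9 and 42 in rre2.

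The mutants were next compared with Col-0 over both treatments together, a comparison the chitin response did not use, although the level threshold in mock samples did limit it. By limma, 10 of the 90 members (11.1%) had a higher level in atl9, against 3.13% of all probe sets tested. This level is a mean over both treatments. In all 10 the log2 gap to Col-0 was larger after chitin than in mock. It was 2.16 after chitin and 0.47 in mock for 264940_at, and 0.78 and 0.44 for 246922_at. The line effect therefore does not show an equal difference in both treatments. Only AT1G10020 was lower in atl9, against 3.99% of all tested, and 79 members did not pass. In rre2, 4 members, or 4.44%, were higher than in Col-0, against 1.93% of all tested, none was lower, against 2.15%, and 86 did not pass. With 1 array left out, members higher in atl9 numbered 5 to 12, the fewest without atl9 chitin replicate 3 or Col-0 mock replicate 4, and those higher in rre2 numbered 3 to 8, the most without rre2 chitin replicate 1. With no filter on the mean, 6 members were higher in atl9 and none lower. Without adjustment for the number of tests, at a p under 0.05 in limma, 22 members were higher in atl9, against 10.2% of all tested, and 9 were lower, against 13.8%. In rre2, 15 were higher by the same p, against 9.73% of all tested, and 6 were lower, against 9.58%. The median line effect of the members was 0.109 in atl9 and 0.123 in rre2 on the log2 scale, against -0.023 and 0.009 over all probe sets tested. Both comparisons use the same 8 Col-0 arrays. On scan day 4 alone, the only day with arrays of every group, 2 arrays a group were left and no member passed in either mutant. At an unadjusted p under 0.05 on that day, 14 members were higher in atl9, against 6.94% of all tested, and 8 lower, against 10.0%, while in rre2 4 were higher, against 4.54%, and 6 lower, against 7.77%. Regardless of p, 47 members were above 0 and 43 below in atl9 on that day, and 48 above and 42 below in rre2. On all arrays 59 members were above 0 in atl9, against 46.1% of all tested, and 60 in rre2, against 51.7%.

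The largest line effects were those of 264940_at and 251272_at, both unnamed. 264940_at read 4.9, 5.53, 6.3 and 5.35 times the array median on the atl9 chitin arrays, against 7.06, 11.8, 12.4 and 8.35 on the atl9 mock arrays. In rre2, 264940_at read 2.57, 3.38, 4.74 and 3.44 after chitin, against 13.2, 11.5, 14.1 and 9.41 in mock. In Col-0, 264940_at read 4.17, 0.785, 0.694 and 1 after chitin, against 7.16, 4.47, 10.1 and 7.19 in mock. After chitin every atl9 array of 264940_at was above every Col-0 array, and 1 Col-0 chitin array stood far above the other 3. Its line effect was 1.32 ± 0.27 in atl9 (log2, SE, n = 8 arrays per line, limma adjusted p = 0.0074) and 1.13 ± 0.27 in rre2 (limma adjusted p = 0.0204). The rre2 call was lost without Col-0 chitin replicate 4 (limma adjusted p = 0.0501) and without rre2 chitin replicate 3 (limma adjusted p = 0.0543). 251272_at read 1.82, 0.898, 1.5 and 1.49 times the array median on the atl9 chitin arrays, against 2.31, 4.09, 3.52 and 2.99 on the atl9 mock arrays. In rre2, 251272_at read 0.299, 1, 1.63 and 0.921 after chitin, against 3.25, 4.22, 1.68 and 1.68 in mock. In Col-0, 251272_at read 0.182, 0.536, 0.357 and 0.391 after chitin, against 1.63, 2.63, 2.44 and 1.06 in mock. 251272_at had a line effect of 1.4 ± 0.31 in atl9 (limma adjusted p = 0.0098) and 0.86 ± 0.31 in rre2, which did not pass (limma adjusted p = 0.123).

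Smaller line effects were seen for 266156_at in atl9 and for AT3G20340 and 264859_at in rre2. 266156_at read 2.2, 1.86, 2.41 and 2.64 times the array median on the atl9 chitin arrays, against 3.63, 6.2, 7.92 and 4.88 on the atl9 mock arrays. In rre2, 266156_at read 0.69, 1.15, 1.58 and 1.26 after chitin, against 4.44, 4.97, 6.1 and 4.76 in mock. In Col-0, 266156_at read 1.13, 0.704, 1.16 and 1.05 after chitin, against 3.45, 3.71, 5.35 and 3.67 in mock. After chitin 266156_at was higher on every atl9 array than on every Col-0 array, and in mock the lines overlapped. Its line effect was 0.82 ± 0.17 in atl9 (limma adjusted p = 0.0077) and 0.26 ± 0.17 in rre2 (limma adjusted p = 0.442). AT3G20340 read 0.786, 0.709, 1.26 and 0.821 times the array median on the atl9 chitin arrays, against 1.95, 2.7, 3.11 and 2.63 on the atl9 mock arrays. In rre2, AT3G20340 read 0.733, 1.36, 1.43 and 1.47 after chitin, against 2.62, 3.09, 3.1 and 3 in mock. In Col-0, AT3G20340 read 0.354, 0.425, 0.696 and 0.631 after chitin, against 2.31, 1.91, 2.71 and 1.35 in mock. AT3G20340, whose role is not given here, had a line effect of 0.9 ± 0.18 in rre2 (limma adjusted p = 0.0072) and 0.57 ± 0.18 in atl9 (limma adjusted p = 0.0575).

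264859_at read 3.61, 4.86, 5.59 and 4.14 times the array median on the atl9 chitin arrays, against 7.4, 8.08, 11.2 and 8.85 on the atl9 mock arrays. In rre2, 264859_at read 5.69, 7.92, 7.91 and 9.31 after chitin, against 13, 17.1, 13.8 and 14.8 in mock. In Col-0, 264859_at read 5.53, 3.09, 2.23 and 2.09 after chitin, against 12.5, 12.2, 13.8 and 11.6 in mock. All rre2 chitin arrays of 264859_at were above all Col-0 chitin arrays. Its line effect was 0.78 ± 0.16 in rre2 (limma adjusted p = 0.009) and 0.04 ± 0.16 in atl9 (limma adjusted p = 0.912). The atl9 value averages opposite shifts. In mock every atl9 array (7.4 to 11.2) was below every Col-0 array (11.6 to 13.8). After chitin the atl9 arrays (3.61 to 5.59) were mostly above the Col-0 arrays (2.09 to 5.53). 249606_at read 0.812, 0.95, 1.1 and 0.874 times the array median on the atl9 chitin arrays, against 2.61, 1.76, 3.08 and 2.72 on the atl9 mock arrays. In rre2, 249606_at read 0.762, 1.51, 1.15 and 0.896 after chitin, against 3.66, 2.37, 2.57 and 3.09 in mock. In Col-0, 249606_at read 0.49, 0.651, 0.636 and 0.428 after chitin, against 1.91, 2.43, 2.12 and 2.07 in mock. 249606_at was higher on every mutant chitin array than on every Col-0 chitin array. It passed in both mutants, with a line effect of 0.5 ± 0.14 in atl9 (limma adjusted p = 0.0388) and 0.69 ± 0.14 in rre2 (limma adjusted p = 0.0096), and the atl9 call was lost without atl9 mock replicate 1, 3 or 4, atl9 chitin replicate 3 or 4, Col-0 mock replicate 1, 3 or 4, or Col-0 chitin replicate 1 or 4 (limma adjusted p 0.0525 to 0.0863).

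**Figure D5:**
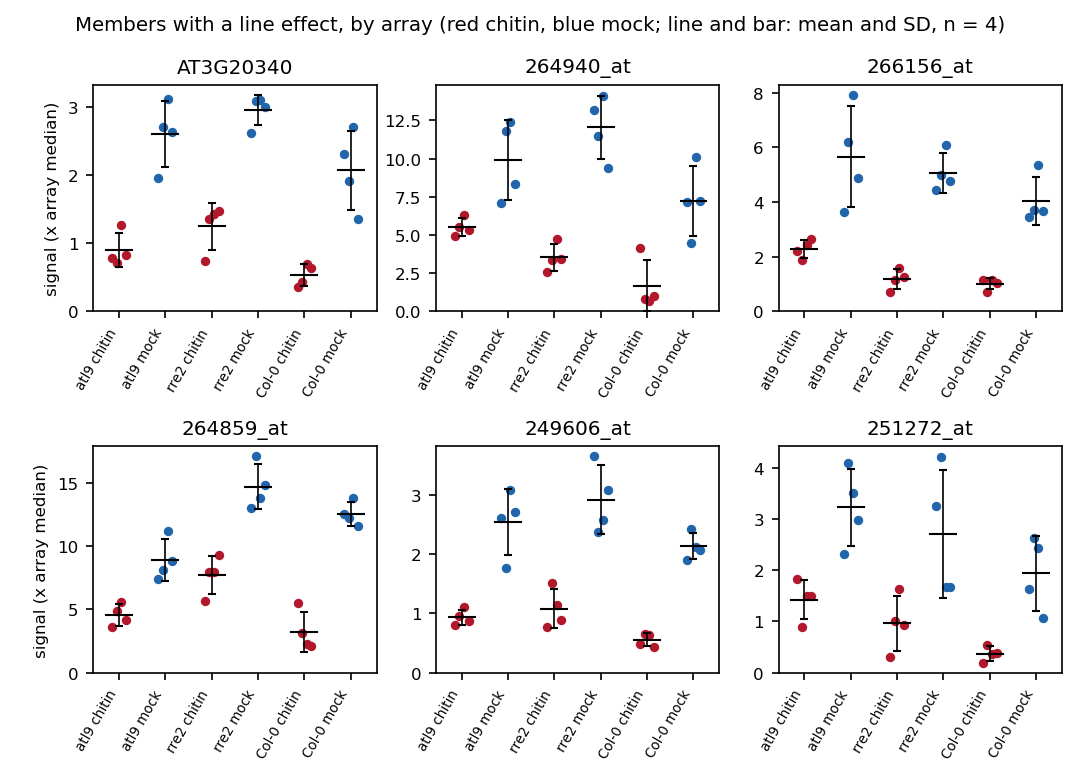
Signal of 6 members with a line effect on each array (vertical axes, multiples of the array median, starting at 0), with chitin in red and mock in blue and the mean and SD of 4 arrays in black. On chitin arrays 266156_at reads 1.86 to 2.64 in atl9 and 0.704 to 1.16 in Col-0, while its mock values overlap between these lines.

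The other members higher in atl9 were 246922_at (0.61 ± 0.13), 252340_at (0.75 ± 0.2), 253022_at (0.74 ± 0.2), 258059_at (0.58 ± 0.16), 262226_at (0.73 ± 0.19) and AT5G54300 (0.84 ± 0.25), with limma adjusted p between 0.0098 and 0.0464. The call for 246922_at passed under 32 of 33 alternative settings. These settings include leaving out single rre2 arrays, which do not enter the atl9 estimate. That for 252340_at passed under 24 of 32 and was lost without atl9 mock replicate 2 or 3, atl9 chitin replicate 3, Col-0 chitin replicate 3 or mock replicate 4 of Col-0 (limma adjusted p 0.0509 to 0.0631). That for 253022_at passed under 26 of 33 and was lost without atl9 mock replicate 2 or 3, atl9 chitin replicate 1 or 3, Col-0 chitin replicate 4 or mock replicate 4 of Col-0 (limma adjusted p 0.0502 to 0.0563). The 258059_at call passed under 23 of 33 and was lost without atl9 mock replicate 2, atl9 chitin replicate 1, 3 or 4, Col-0 mock replicate 1 or 4, or Col-0 chitin replicate 3 (limma adjusted p 0.0528 to 0.0602). The 262226_at call passed under 28 of 33 and was lost without atl9 mock replicate 1, atl9 chitin replicate 4, Col-0 chitin replicate 2 or mock replicate 1 of Col-0 (limma adjusted p 0.0506 to 0.0536).

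AT5G54300 codes for a protein of the DUF761 family. AT5G54300 read 1.22, 0.665, 0.856 and 1.37 times the array median on the atl9 chitin arrays, against 1.33, 2.52, 2.44 and 1.38 on the atl9 mock arrays. In rre2, AT5G54300 read 0.328, 0.678, 1.15 and 0.991 after chitin, against 1.7, 2.36, 2.13 and 1.38 in mock. In Col-0, AT5G54300 read 0.475, 0.369, 0.461 and 0.54 after chitin, against 1.15, 1.81, 1.67 and 0.686 in mock. In atl9 its chitin and mock arrays overlapped, and its line effect passed under 13 of 32 alternative settings, and 15 of the 19 losses came with a single array left out. All 10 members higher in atl9 had a smaller fall in atl9 than in Col-0, as did 51 of all 90 members, and this was not tested. All 10 also had a line effect above 0 in rre2, as did 60 of all 90 members. AT1G10020 was lower in atl9 by a line effect of -0.39 ± 0.11 (limma adjusted p = 0.0388), which passed under 17 of 33 alternative settings, and 12 of the 16 losses came with a single atl9 or Col-0 array left out (limma adjusted p 0.0512 to 0.0805).

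Gene lists for plant pathways gave little to set beside the members, and no member was matched by any list. A list gene counted as tested only if a tested probe set matched it alone in the annotation used. Of the probe sets tested, 43.5% were not listed there, so unnamed members could not be matched. List genes counted here as not tested may have been measured on such probe sets. Transcription factor families were matched by the start of the gene symbol. The members AT5G61590 and AT2G44940 (ERF family) and AT1G74840 (MYB-related) carry no such symbol here and were therefore not matched. Of 40 auxin genes 3 were tested and none passed for chitin in any line. Of 21 gibberellin and brassinosteroid genes 3 were tested and 1 was lower in rre2. The cytokinin, clock and sugar lists had 1 tested gene each and none passed, and the lists for abscisic acid, nitrogen, aquaporins and secondary-metabolism regulators had none tested. Of 5 WRKY genes tested 3 rose in each line, including WRKY53, by 3.47 in atl9, 3.51 in rre2 and 3.37 in Col-0 on the log2 scale (limma, SE 0.19). Among the leaf markers all 3 tested (LHCB4.1, RCA and PSAN) were higher after chitin in Col-0, with a median of 0.78, and none passed in atl9 (0.38) or rre2 (-0.14). Among transcription factors listed by symbol, 1 of 4 bHLH genes tested was lower in Col-0, 1 of 2 homeobox genes was lower in atl9 and 1 in rre2, the NAC gene was lower and the TCP gene higher in Col-0, and no MYB, GATA or ERF symbol was tested. The root marker PYK10 did not pass in any line (0.19, 0.1 and 0.21 in atl9, rre2 and Col-0). The part of the leaf and root share in the falls was not tested.

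Along the chromosomes the closest pair of named members, AT1G74840 and AT1G74940, has 11 protein-coding genes between them, and the next closest pair has 25.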

How the data were processed

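Total RNA of whole seedlings was labelled (15 µg cRNA per array) and hybridised to 24 ATH1 arrays. The deposited values are signal intensities, 1 per probe set, that the authors computed with Affymetrix software (MAS5.0 in their methods, GCOS in the labels) and scaled to a target intensity of 500. Replicates were not pooled, and the number of arrays limits the precision. Array medians ranged from 138.7 to 168 on chitin arrays and from 161.6 to 189.3 on mock arrays, so each value was divided by the median over 22746 non-control probe sets of its array and turned into log2. Of these probe sets 13513 match 1 gene, 503 several and 8730 were not listed in the platform annotation used. The genome build was not given in the sources used here, so no coordinates are given.

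The members and the gene lists were chosen with earlier results of these data known. Probe sets shown by array were the 12 members with the lowest mean difference, the 4 with the strongest mock signal, the 6 with the smallest adjusted p for a line effect and those at the threshold. Members with a recognised protein family were added after their values were seen. Line effects were tested in limma 3.58.1 (R 4.3.3) with lmFit and eBayes, 2-sided, in 1 fit of 6 group means over all 24 arrays, with Benjamini-Hochberg adjustment over the probe sets of highest mean, the same number the authors analysed. The step was tested on simulated data in which 200 probe sets changed by 1.5 on the log2 scale in atl9. Of these 97% were recovered, with 15 false calls. That change is larger than any line effect called here, and no scan-day differences were simulated. Recovery of effects of the size called was therefore not tested. The fit was repeated on unscaled deposited values, after quantile normalization, with 32 added to each value, on all probe sets, on the brightest 11000, with 1 mutant at a time, scan day or replicate number as a block, each array left out, and, chosen after seeing the data, scan day 4 alone. Promoter motifs were not searched, and the sequences they need were not used here.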

Additional observations from a re-analysis of the deposited data

Results flagged for a closer look

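Outlying arrays were sought on the log2 scale in 186 groups of 4 arrays. These took each of the 30 members shown by array and the median of all members in the 6 groups. In 16 the highest or lowest array was set apart from the other 3 by a gap that exceeded Dixon's critical value for 4 samples. Chance flags about 1 in 20 groups. Values below are multiples of the array median. On the log2 scale 264940_at in Col-0 chitin (4.17, others 0.694 to 1) was not flagged. On atl9 chitin arrays, 247013_at read 2.41 on replicate 3 (others 2.85 to 2.87), AT2G36090 read 0.225 on replicate 2 (others 0.455 to 0.504), 264014_at read 1.14 on replicate 1 (others 1.46 to 1.54) and 258059_at read 0.769 on replicate 2 (others 1.63 to 1.75). On atl9 mock arrays, replicate 1 stood apart for AT5G61590 (7.94, others 5.92 to 6.2) and AT5G11090 (16.7, others 12.5 to 13).

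On rre2 chitin arrays, 247013_at read 4.28 on replicate 4 (others 2.9 to 3.07), AT1G10020 read 1.77 on replicate 2 (others 1.05 to 1.11), 264014_at read 1.2 on replicate 3 (others 1.58 to 1.66) and AT3G20340 read 0.733 on replicate 1 (others 1.36 to 1.47). On rre2 mock arrays, 264014_at read 5.72 on replicate 4 (others 4.93 to 5.04). On Col-0 chitin arrays, AT5G03230 read 0.357 on replicate 4 (others 0.682 to 0.776). On Col-0 mock arrays, replicate 3 stood apart for 266156_at (5.35, others 3.45 to 3.71) and 253125_at (24.3, others 18.2 to 19), replicate 2 for AT3G16800 (3.1, others 2.05 to 2.06), and replicate 4 for AT5G43180 (0.788, others 1.27 to 1.37).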

How the results depend on the processing

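Without division by the array median, 155 probe sets met the rule, among them all 90 members, and the members' median chitin minus mock was -1.33 in atl9, -1.49 in rre2 and -1.42 in Col-0, while all probe sets tested moved by -0.165, -0.175 and -0.156. Quantile normalization gave 106 probe sets (89 of them members) and an offset of 32 gave 70 (69 of them members), with medians of -1.02 in atl9 and -1.17 in rre2 under the offset. Leaving out 1 array gave 80 to 97 probe sets. Medians then ranged from -1.21 to -1.1 in atl9, -1.33 to -1.27 in rre2 and -1.25 to -1.15 in Col-0. All medians kept their direction.

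Members higher in atl9 numbered 6 with no filter, 0 on scan day 4 alone and 5 to 12 with 1 array left out. At an unadjusted p under 0.05 in limma they numbered 14 on scan day 4 alone, against 6.94% of all tested. The lowest count with 1 array left out was without atl9 chitin replicate 3 or Col-0 mock replicate 4. Members lower in atl9 numbered 0 with values as deposited, with scan day as a block, with no filter and on scan day 4 alone. They numbered 2 with the stricter filter, and 0 to 2 with 1 array left out. Unadjusted, 7 were lower with values as deposited (against 11.6% of all tested) and 8 with scan day as a block (14.2%). There were also 8 with no filter (10.5%) and 8 on scan day 4 alone (10.0%). Members higher in rre2 numbered 0 on scan day 4 alone (4 unadjusted, against 4.54% of all tested). With 1 array left out they numbered 3 to 8, the highest without rre2 chitin replicate 1. Members lower in rre2 numbered 1 with the stricter filter and 0 to 2 with 1 array left out, the highest without rre2 chitin replicate 2. The cause of these shifts was not tested. Some settings use fewer arrays or probe sets, and the lines were not balanced over the earlier scan days.

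Of the 15 line-effect calls, 14 passed with the replicate block, 13 with scan day as a block, 10 with no filter and none on scan day 4 alone, where 2 arrays per group were left. Single calls in atl9 passed under 32 of 33 alternatives for 246922_at, 251272_at, 264940_at and 266156_at, and the other members higher in atl9 passed under fewer. Alternatives that leave out an array of the other mutant do not change the estimate of a call. In rre2 single calls passed under 32 of 33 for 249606_at, 264859_at and AT3G20340 and 29 for 264940_at. That last call was also lost in a fit of rre2 and Col-0 alone (limma adjusted p = 0.0574). The replicate block gave 10 members higher and 1 lower in atl9, and 4 higher and 0 lower in rre2 (6 unadjusted, against 9.57% of all tested). Of 60 same-numbered pairs of arrays from different groups, 16 had deviations from the group means that correlated above 0.1. Differently numbered arrays were not correlated, so this check cannot tell whether the numbers pair the samples. The main fit did not pair them. None of the 15 line-effect calls changed sign under any setting run. Line effects of other members did change sign. On scan day 4 alone 47 members were above 0 in atl9, against 59 on all arrays, and 48 against 60 in rre2. The promoter motif search was not run.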
